A study of Sus scrofa with 6 samples.

Results

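The genes described here encode the relay from cell surface receptors to protein kinases: heterotrimeric G protein subunits, the receptors and regulators around them, and the subunits of protein kinases A and C and of the AMP-activated kinase. Membership follows the gene symbol: a probe set was taken where its single symbol begins with the letters of these families. This gave 69 probe sets for 48 genes of 6765 genes on the array, each gene being represented by its brightest probe set. The 48 genes were 4 G alpha, 2 G beta and 7 G gamma subunits, 3 adrenoceptors, 4 receptor kinases, 1 arrestin, 8 RGS proteins, 4 subunits of protein kinase A, 5 isoforms of protein kinase C, 7 subunits of the AMP-activated kinase and 3 genes that share only the first letters. The rule also names adenylyl cyclases and phospholipases C beta, but the only symbol with the cyclase letters was ADCYAP1, which encodes a neuropeptide, and no phospholipase C beta gene was found. The genes taken by this rule therefore hold no measure of the cyclases themselves. Probe sets with no symbol or with several were not taken.

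The 6 animals were male Lanyu miniature pigs aged 18 months, and RNA of each left atrium was hybridised to its own array, with 2 animals per group. MRV pigs had mitral regurgitation, made surgically 12 months before death by opening a hole of 2.8 mm in the posterior leaflet of the valve, and were given the angiotensin receptor blocker valsartan, starting 1 week ahead of the operation, at a daily 3.43 mg/kg. MR pigs had the same lesion without valsartan, and NC pigs were age-matched normal controls for which the labels record no operation, so that the lesion and the surgery that made it cannot be told apart. Values are intensities on a linear scale as deposited, and differences are of log2(intensity + 16), which understates those of dim probe sets. Array medians lay between 90.2 and 93.4. Across probe sets, r between the arrays of a group was 0.981 in MRV, 0.981 in MR and 0.959 in NC, the lowest. The atrial markers NPPA, MYL4 and SLN read from 18414 to 20170, from 21034 to 21842 and from 5369 to 10033 over the 6 arrays. In atrial tissue, fewer cells of a type and less RNA per cell cannot be told apart.

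In the heart, agonist-bound receptors load GTP onto G alpha subunits, which part from the beta and gamma subunits. Stimulatory G alpha raises cyclic AMP through adenylyl cyclase, inhibitory G alpha lowers it, and the Gq class acts through phospholipase C and protein kinase C. Cyclic AMP frees the catalytic subunits of protein kinase A from their regulatory subunits, and the kinase then phosphorylates calcium channels, ryanodine receptors and phospholamban. RGS proteins speed GTP hydrolysis and so end the G alpha signal, while receptor kinases and arrestins silence the receptor. These are among the steps by which sympathetic and vagal nerves set atrial rate and force.

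Of the 48 genes, 37 lay above the filter on dim probe sets, a mean intensity of 60.8, and were tested. In no comparison did a gene of these families pass limma's adjusted p of 0.05 (0 of 37 each time). The background shares of probe sets called were 0.00694% in MR minus NC and 0.0% in both MRV comparisons. Unadjusted limma p-values under 0.05 were found for 1 of the 37 genes in MRV minus MR, 2 in MR minus NC and 1 in MRV minus NC, where 7.88%, 4.49% and 5.62% of all 5407 tested genes had one. The median log2 difference of the 37 genes was 0.012 in MRV minus MR, -0.032 in MR minus NC and 0.012 in MRV minus NC, beside -0.031, 0.0076 and -0.023 for all tested genes. Higher values were seen for 19 of the 37 genes in MRV minus MR, 13 in MR minus NC and 20 in MRV minus NC, beside 42.4%, 52.6% and 44.3% of all tested genes.

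**Figure D1:**
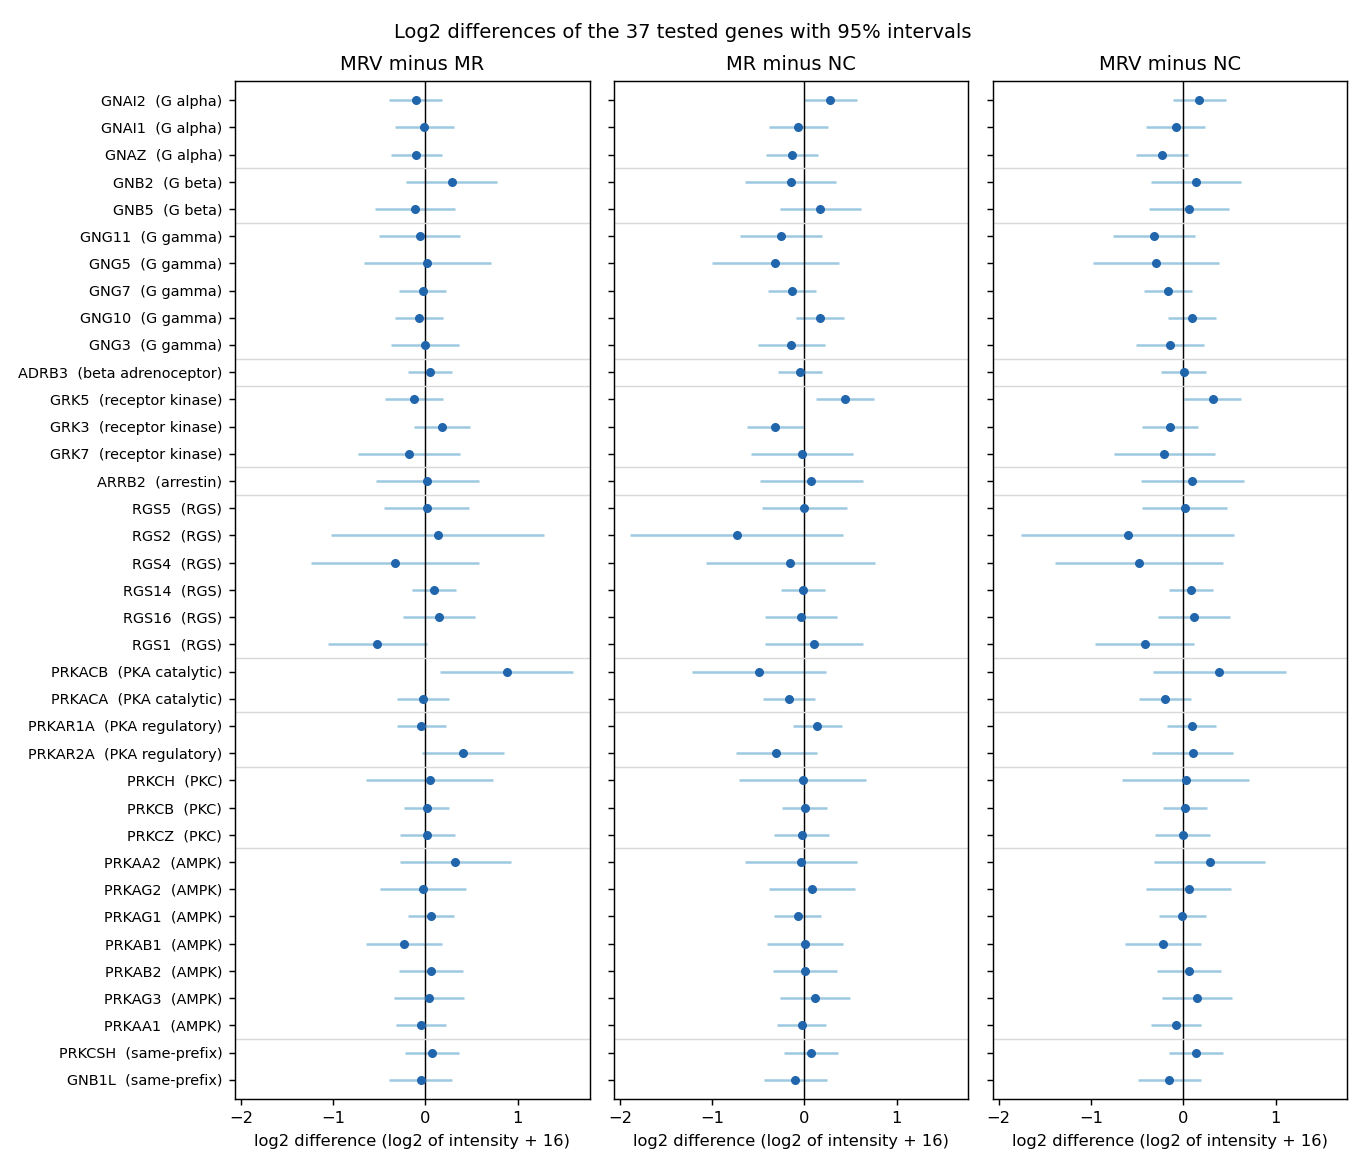
Log2 differences of the 37 tested genes (points) with 95% intervals from the limma fit (lines, not adjusted for the number of genes), one panel per comparison, with genes in rows sorted by role. The PRKACB interval in MRV minus MR, those of GRK5 and GRK3 in MR minus NC and that of GRK5 in MRV minus NC lie on one side of 0. The widest intervals are those of RGS2 and RGS4.

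Of these families, protein kinase A held the gene with the largest difference between MRV and MR atria. PRKACB, a catalytic subunit of the kinase, read 1308 and 1259 in MRV atria, against 709 and 673 in MR atria. The NC arrays fell on either side, at 1359 and 701. MRV and MR did not overlap, and the NC arrays lay 0.94 apart on the log2 scale, one near each of the other groups. The log2 difference of MRV minus MR was 0.88 (SE 0.29, 95% interval 0.16 to 1.60, limma unadjusted p = 0.0250, adjusted p = 0.630). The SE and interval pool the spread of all groups, the NC gap of 0.94 included. The gaps between arrays were 0.054 in MRV and 0.075 in MR. Fitted on the MRV and MR arrays alone, the difference was again 0.88, with a limma adjusted p of 0.218, still above 0.05. Of the 5407 tested genes, 81 had a larger absolute difference in this comparison. For MR minus NC the log2 difference was -0.49, and it was -0.02 without NC1 and -0.96 without NC2. For MRV minus NC it was 0.39, with 0.86 without NC1 and -0.08 without NC2, so that NC1 or NC2 decided the value and, in the last case, its sign.

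PRKACA, which encodes the other catalytic subunit measured, did not follow PRKACB in MRV minus MR. It read 631 and 602 in MRV atria, 640 and 620 in MR atria, and 662 and 761 in NC atria. PRKACA lay below NC without overlap in both lesioned groups. The log2 differences were -0.17 in MR minus NC (95% interval -0.45 to 0.11) and -0.20 in MRV minus NC (95% interval -0.48 to 0.08). The PRKACA difference in MRV minus MR was -0.03 (95% interval -0.31 to 0.25). The difference between the subunits was not tested. Regulatory subunits hold the catalytic ones inactive until cyclic AMP binds. PRKAR2A, the type II alpha regulatory subunit, read 143 and 178 in MRV atria, 122 and 111 in MR atria, and 126 and 173 in NC atria. MRV lay above MR without overlap, with a log2 difference of 0.40 (limma adjusted p = 0.709, SE 0.18), which was 0.26 without MRV2. PRKAR1A, the type I alpha subunit, read 4137 and 3838 in MRV atria, 4118 and 4122 in MR atria, and 3919 and 3581 in NC atria. MR lay above NC without overlap, by 0.14 on the log2 scale. A further PRKAR1A probe set differed by 0.30 in the same direction, at 1332 and 1354 in MR atria against 1129 and 1046 in NC atria. This further probe set read 1240.3 and 1114 in MRV atria, below MR without overlap. Its log2 difference in MRV minus MR was -0.19, against -0.05 for the brighter probe set.

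Other measures also separated the MRV from the MR arrays. Degradation of RNA raises the signal of the 3' actin control over that of the 5' control. Their quotient stood at 2.30 and 1.87 for the MRV arrays, 1.44 and 1.70 for MR, and 1.61 and 1.91 for NC. The 3' actin signal itself read 7859 and 10977 in MRV, 15543 and 14861 in MR, and 13511 and 13135 in NC, and the 28S ribosomal control read 341 and 559 in MRV, 187 and 280 in MR, and 117 and 468 in NC. Both set the MRV arrays apart from the MR arrays. Adjusted for the actin quotient, the PRKACB difference of MRV minus MR was 1.32 (limma adjusted p = 0.9999). The 3 markers of Schwann cells and neurons on the array, of 8 listed, were all lower in MRV. Their summed intensity was 1085 and 1784 in MRV, 2963 and 2673 in MR, and 1713 and 2933 in NC. The 3 smooth muscle markers of 4 listed summed to 3210 and 3608 in MRV, 4168 and 3766 in MR, and 4983 and 3916 in NC, and 2 of the 3 were lower in MRV than in MR. Of 5 endothelial markers, 4 were tested and all 4 were lower in MRV than in MR, VWF and TEK without overlap, and their median difference was -0.18 on the log2 scale. Summed over the 5, they read 2550 and 2932 in MRV, 2898 and 3181 in MR, and 2981 and 2831 in NC. Other lists leaned the other way, with 3 of 4 adipocyte, 2 of 3 fibroblast and 4 of 5 atrial cardiomyocyte markers higher in MRV than in MR. Among these, LIPE, DCN, NPPA and ACTC1 were higher without overlap, and LUM and TNNT2 lower without overlap. Of all tested genes, 42.4% were higher in this comparison and 28.6% were lower without overlap. The part of the marker lists in the PRKACB and PRKAR2A values was not tested.

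**Figure D2:**
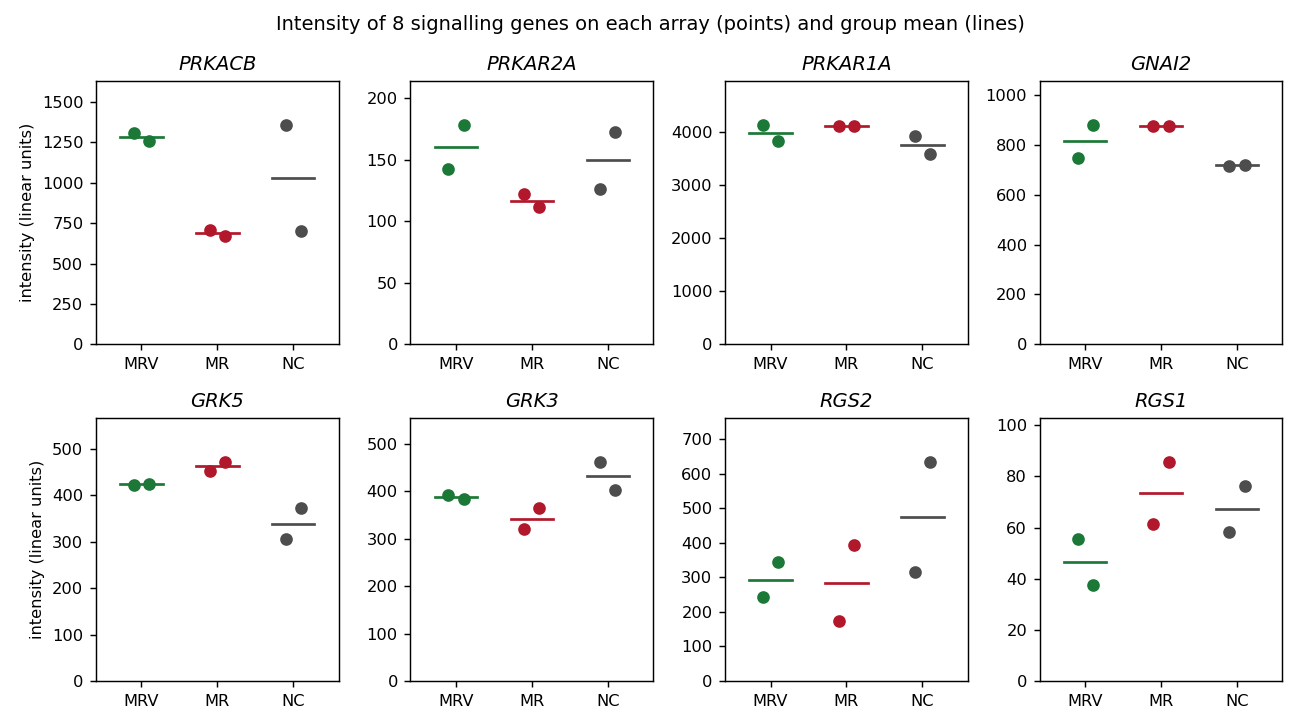
Intensity (linear units, vertical axis from 0) of 8 genes on each array, with the MRV, MR and NC pigs as points and group means as lines. PRKACB separates MRV from MR while its NC arrays sit at 1359 and 701, GRK5 is lowest on both NC arrays, and RGS2 spreads as widely within MR and NC as between groups. The choice of these 8 genes followed from their values.

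Receptor kinases phosphorylate active receptors, which arrestin then binds. GRK5, a membrane-bound receptor kinase of the heart, read 422 and 425 in MRV atria, 452 and 473 in MR atria, and 305 and 372 in NC atria. Both lesioned groups lay above NC without overlap. The log2 difference was 0.44 in MR minus NC (SE 0.13, 95% interval 0.13 to 0.75, limma unadjusted p = 0.0141, adjusted p = 0.999955). It was 0.32 in MRV minus NC (95% interval 0.0042 to 0.63, limma unadjusted p = 0.0478, adjusted p = 0.905). These comparisons share the NC arrays, and without NC1 the differences were 0.30 and 0.18.

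GRK3, whose kinase is drawn to the membrane by free G beta and gamma subunits, had the opposite order. It read 393 and 384 in MRV atria, 320 and 365 in MR atria, and 463 and 403 in NC atria. The log2 difference was -0.32 in MR minus NC (SE 0.12, 95% interval -0.63 to -0.02, limma unadjusted p = 0.0417, adjusted p = 0.999955). MRV lay between MR and NC without overlap with either. GRK7, a kinase known from cone photoreceptors, read 119 and 119 in MRV atria, 174 and 107 in MR atria, and 156 and 125 in NC atria. Its MR arrays differed by 0.63 on the log2 scale, more than any difference between groups. The arrestin gene ARRB2 read 155 and 160.3 in MRV atria, 134 and 181 in MR atria, and 183 and 117 in NC atria, and the groups overlapped in every comparison, with a log2 difference of 0.075 in MR minus NC (limma adjusted p = 0.999955, SE 0.23).

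Markers of fat cells were also lower in MR than in NC. Of 6 adipocyte markers listed, 5 were on the array and 4 tested, all 4 lower in MR. Their summed intensity over the 5 was 2103 and 1125 in MRV, 1875 and 2392 in MR, and 3397 and 2446 in NC, and ADIPOQ lay below the filter on dim probe sets. The 3 markers of Schwann cells and neurons were all higher in MR than in NC, with a median log2 difference of 0.25, S100B and SOX10 without overlap. The part of these markers in the GRK5 and GRK3 values was not tested.

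The G alpha genes above the filter were GNAI2, GNAI1 and GNAZ, all of the inhibitory class. GNAI2 read 750.2 and 882 in MRV atria, 876 and 876 in MR atria, and 717 and 722 in NC atria. Both lesioned groups lay above NC without overlap, with log2 differences of 0.28 in MR minus NC (SE 0.12, limma unadjusted p = 0.0555, adjusted p = 0.999955) and 0.17 in MRV minus NC. The MRV minus NC value of GNAI2 was 0.29 without MRV1 and 0.059 without MRV2. GNAI1 read from 350.0 to 428 over the 6 arrays and GNAZ from 67.9 to 88.3. Both MRV values of GNAZ, 67.9 and 70.5, lay below the NC values of 88.3 and 79.9, with a log2 difference of -0.23.

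The G beta gene GNB2 read 580.3 and 556 in MRV atria, 398 and 540 in MR atria, and 445 and 598 in NC atria. MRV lay above MR without overlap by 0.28 (SE 0.20, limma adjusted p = 0.780), and the value was 0.072 without MR1, 0.50 without MR2 and -0.14 when adjusted for the actin quotient. GNB5, whose protein pairs with a subclass of RGS proteins, read 316 and 406 in MRV atria, 403 and 376 in MR atria, and 302 and 390.3 in NC atria. Its MR minus NC difference was 0.17, against 0.30 for a further probe set of the gene, and the 95% interval of the brighter probe set ran from -0.26 to 0.61.

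Of the 5 tested G gamma genes, 4 were lower in MRV than in NC and 4 lower in MR than in NC. GNG11 read 3434 and 3676 in MRV atria, 3193 and 4317 in MR atria, and 4857 and 4042 in NC atria. GNG7 read 1012 and 945 in MRV atria, 1002 and 997 in MR atria, and 1143 and 1059 in NC atria. GNG7 lay below NC in both lesioned groups without overlap, and GNG11 did so in MRV only. GNG10 ran the other way, at 613 and 609 in MRV, 674 and 614 in MR, and 553 and 588 in NC, with a log2 difference of 0.17 in MR minus NC (limma adjusted p = 0.999955, SE 0.11). GNG5 read 1259 and 1129 in MRV, 1189 and 1166 in MR, and 1996 and 1079 in NC. Its lower group means against NC rest on NC1 alone.

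The widest gaps between animals of a group were those of RGS2 and RGS4. RGS2, whose protein acts mainly on Gq, had the largest difference of these families in MR minus NC, a log2 value of -0.74 (SE 0.47, 95% interval -1.89 to 0.42, limma unadjusted p = 0.168, adjusted p = 0.999955). It read 242 and 345 in MRV atria, 173 and 395 in MR atria, and 315 and 635 in NC atria. The groups overlapped, and the difference was -0.18 without MR1 and -1.29 without MR2. It was -1.22 without NC1 and -0.25 without NC2. The dimmer RGS2 probe sets, below the filter, differed by -0.04 and -0.11 in MR minus NC. RGS4 read 123 and 124 in MRV atria, 150 and 169 in MR atria, and 280 and 112 in NC atria, where NC1 stood above and NC2 below every other array.

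RGS1, known from lymphocytes, was the other gene without overlap whose MRV and MR group means differed by 0.5 log2 units or more. It read 55.5 and 37.4 in MRV atria, 61.2 and 85.8 in MR atria, and 58.2 and 76.2 in NC atria. The difference was -0.52 (SE 0.22, limma unadjusted p = 0.0537, adjusted p = 0.695), and it was -0.31 without MRV2, -0.32 without MR2, -0.32 with a pseudocount of 64 and -1.10 when adjusted for the actin quotient. Its mean lay close to the filter of 60.8, and a dimmer RGS1 probe set, below the filter, differed by 0.026. Of 6 leukocyte markers listed, 4 were on the array, and their sums overlapped between MRV and MR, at 252 and 448 in MRV, 257 and 455 in MR, and 423 and 338 in NC. PTPRC, the pan-leukocyte marker, read at most 19.0 on any array. RGS5, known from pericytes and vascular smooth muscle, read from 1025 to 1390.1 and differed by 0.014 in MRV minus MR and -0.0025 in MR minus NC. RGS14 and RGS16 lay between 120.1 and 134 and between 94.5 and 131.

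Genes without overlap between groups and with a difference of 0.5 log2 units or more were about as frequent here as on the whole array, or absent. In MRV minus MR there were 2 of 37 (PRKACB higher, RGS1 lower), beside 4.62% of all tested genes. In MR minus NC and in MRV minus NC there were 0 of 37, beside 2.31% and 3.05% of all tested genes. Without regard to size, 15 of the 37 genes had no overlap between MRV and MR, 10 higher and 5 lower, against backgrounds of 15.0% higher and 28.6% lower. In MR minus NC 4 genes were higher and 6 lower without overlap, against 15.7% and 12.4%, and in MRV minus NC 4 higher and 8 lower, against 13.3% and 21.7%.

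Of 5 protein kinase C isoforms, 3 were tested, with log2 differences from -0.030 to 0.044 over the 3 comparisons. PRKCB, a conventional isoform, read 121 and 122 in MRV atria, 120.0 and 120.0 in MR atria, and 117 and 123 in NC atria. Its log2 difference was 0.012 in MRV minus MR (95% interval -0.23 to 0.25) and 0.0019 in MR minus NC (95% interval -0.24 to 0.24). Further PRKCB probe sets, below the filter, read from 9.9 to 22.1. The atypical isoform gene PRKCZ read from 55.7 to 68.8, with a log2 difference of -0.03 in MR minus NC (limma adjusted p = 0.999955, SE 0.12). The PRKCZ mean of 61.4 lay close to the filter of 60.8. PRKCH, an isoform that needs no calcium, read 263 and 340 in MRV atria, 220 and 380.1 in MR atria, and 259 and 331 in NC atria, so that the MR arrays spanned those of both other groups. The 95% interval of PRKCH ran from -0.64 to 0.73 in MRV minus MR and from -0.70 to 0.67 in MR minus NC. PRKCA, the main isoform of heart muscle, and PRKCD lay below the filter, between 43.9 and 50.0 and between 39.8 and 51.0.

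The AMP-activated kinase, an energy sensor that shares the first letters of its symbols with protein kinase A, had all 7 subunit genes tested. PRKAA2, the catalytic alpha subunit that prevails in striated muscle, read 1874 and 1966 in MRV atria, 1547 and 1514 in MR atria, and 1204 and 2056 in NC atria. MRV lay above MR without overlap by 0.32 (SE 0.24, 95% interval -0.28 to 0.93), while NC1 was the lowest and NC2 the highest of the 6 arrays. Adjusted for the actin quotient, the PRKAA2 difference of MRV minus MR was 0.018. PRKAB1, a scaffold subunit, read 317 and 306 in MRV, 384 and 353 in MR, and 430 and 311 in NC. Its log2 difference in MRV minus MR was -0.23 (SE 0.17, limma adjusted p = 0.787), and adjusted for the actin quotient it was 0.0021. The gamma subunit genes PRKAG2, which is mutated in an inherited glycogen storage cardiomyopathy in humans, and PRKAG1 had log2 differences between -0.07 and 0.08 in every comparison. PRKAB2, PRKAG3 and PRKAA1 had log2 differences between -0.08 and 0.15.

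The beta adrenoceptor gene ADRB3 read 101 and 101 in MRV atria, 97.9 and 95.5 in MR atria, and 98.0 and 103 in NC atria. MRV lay above MR without overlap by 0.05 (SE 0.098, limma adjusted p = 0.930). The chief cardiac adrenoceptor gene ADRB1 read from 41.3 to 49.8 and ADRA2A from 12.2 to 15.8, both below the filter. Also below it were GNAS, the stimulatory G alpha, at 8.8 to 12.2, GNG2 at 43.8 to 62.2, GNG12 at 12.9 to 14.2, RGS10 at 49.8 to 65.6, RGS18 at 22.9 to 27.4, GRK4 at 54.2 to 68.4 and ADCYAP1 at 14.9 to 18.9. GNAS is used by nearly every cell, so the low reading of its probe set is no measure of the gene's level. Of the same-letter genes, PRKCSH, a subunit of a glucosidase of the endoplasmic reticulum, and GNB1L had log2 differences between -0.15 and 0.14. GNB1L differed by -0.099 in MR minus NC (limma adjusted p = 0.999955, SE 0.14). A further, dimmer GNB1L probe set, also tested, differed by -0.11 in MR minus NC. It differed by 0.20 in MRV minus MR and 0.084 in MRV minus NC, against -0.054 and -0.15 for the brighter probe set.

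The spread between the 2 animals of a group was uneven. The median gap between both arrays over the 37 genes was 0.065 in MRV, 0.12 in MR and 0.27 in NC on the log2 scale, beside 0.12, 0.13 and 0.17 for all tested genes. The NC pair was the widest of the 3 pairs for 22 of the 37 genes, the MR pair for 10 and the MRV pair for 5. Gaps of at least 0.5 were seen for 0 genes in MRV, 3 in MR (RGS2, PRKCH and GRK7) and 6 in NC (RGS4, RGS2, PRKACB, GNG5, PRKAA2 and ARRB2). These are 0%, 8.11% and 16.2% of the genes, beside 5.59%, 5.88% and 11.5% of all tested genes. NC1 stood above NC2 for PRKACB, GNG5, RGS4 and ARRB2 and below it for PRKAA2 and RGS2.

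**Figure D3:**
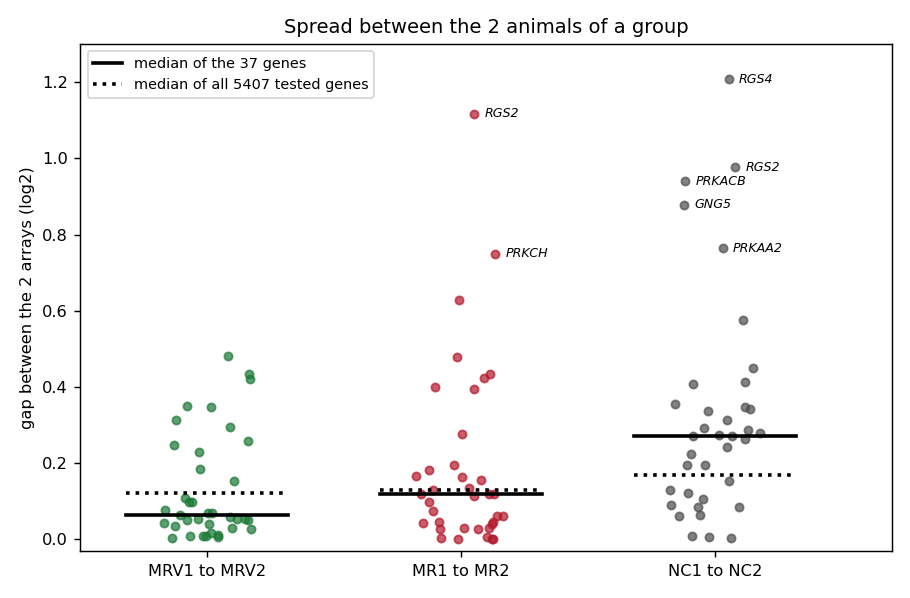
Absolute gap between the 2 arrays of each group (vertical axis, log2) for the 37 tested genes, with points for genes, solid lines for their median and dotted lines for the median of all 5407 tested genes. The NC median of 0.27 is above the MR median of 0.12 and the MRV median of 0.065, and named genes have gaps of more than 0.7.

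Of 109 other genes of these pathways (further receptors, phosphodiesterases, anchoring proteins, kinase targets and phosphatases), 60 were on the array and 48 were tested. None of the 48 passed limma's adjusted p of 0.05 in any comparison, with smallest adjusted p-values of 0.527 in MRV minus MR, 0.999955 in MR minus NC and 0.810 in MRV minus NC. In MRV minus MR, 22 were higher and 26 lower, with a median log2 difference of -0.022. In MR minus NC, 29 were higher and 19 lower, with a median of 0.028, and in MRV minus NC 24 were higher and 24 lower, with a median of -0.0023. In MRV minus MR, EDNRA and PDE3A were higher and PLCD4 lower by 0.5 log2 units or more without overlap, 3 of 48 beside 4.62% of all tested genes. In MR minus NC, PPP1CA was higher and EDNRA lower by that measure, 2 of 48 beside 2.31%. In MRV minus NC, PDE3A was higher and PPP1R1A and ADORA1 lower, 3 of 48 beside 3.05%.

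EDNRA, the endothelin A receptor, which couples to Gq, read 702 and 588 in MRV atria, 459 and 386 in MR atria, and 672 and 639.8 in NC atria. MR lay below both other groups without overlap, with log2 differences of 0.59 in MRV minus MR and -0.62 in MR minus NC. PDE3A, a phosphodiesterase that breaks down cyclic AMP in heart muscle, read 327 and 447 in MRV atria, 216 and 251 in MR atria, and 205 and 306 in NC atria, with a log2 difference of 0.68 in MRV minus MR (limma adjusted p = 0.647). PLCD4, a phospholipase C of the delta class, read 64.6 and 52.2 in MRV atria, 118 and 95 in MR atria, and 89.7 and 59.6 in NC atria, a log2 difference of -0.72. The adenosine receptor gene ADORA1, which couples to inhibitory G proteins, read 135 and 99.3 in MRV atria, 150.4 and 151 in MR atria, and 176 and 171 in NC atria. Both lesioned groups were below NC without overlap, with log2 differences of -0.52 in MRV minus NC and -0.18 in MR minus NC. The vagal receptor gene CHRM2 read 65.3 and 68.3 in MRV, 87.0 and 69.2 in MR, and 93.9 and 73.5 in NC, the MRV arrays lying below all others. Of the targets of protein kinase A, TNNI3 and PLN had log2 differences of 0.036 and 0.026 in MRV minus MR. PPP1R1A, phosphatase inhibitor 1, another target, read 222 and 190 in MRV atria, 261 and 236 in MR atria, and 294 and 326 in NC atria. No 2 groups overlapped, and the log2 differences were -0.26 in MRV minus MR, -0.30 in MR minus NC and -0.56 in MRV minus NC (limma adjusted p = 0.810 in the last). PPP1CA, a catalytic subunit of protein phosphatase 1, read 60.9 and 68.1 in MRV atria, 173 and 65.2 in MR atria, and 57.2 and 65.0 in NC atria, so that its log2 difference of 0.69 in MR minus NC rested on MR1. RYR2 read 3124 and 2900.1 in MRV, 4786 and 3343 in MR, and 4251 and 3411 in NC, a log2 difference of -0.41 in MRV minus MR. The choice of these genes followed from their values.

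**Figure D4:**
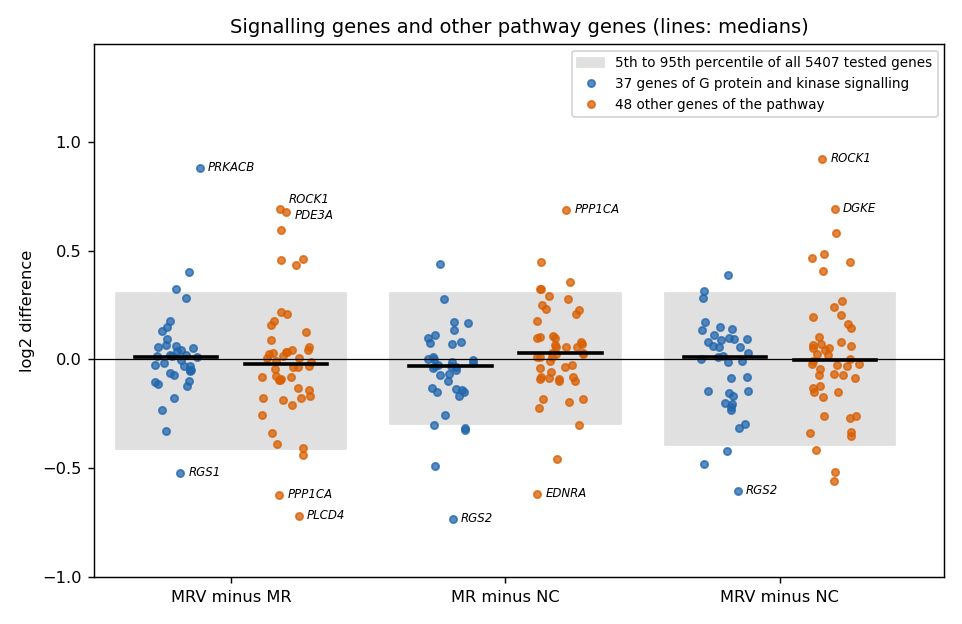
Log2 differences (vertical axis) of the 37 tested genes of G protein and kinase signalling and of 48 other genes of the pathway in the 3 comparisons, with black lines for medians and grey bands for the 5th to 95th percentile of all 5407 tested genes. In MRV minus MR 33 of the 37 genes lie in the band, in MR minus NC 31 and in MRV minus NC 32.

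The precision was set by 2 animals per group. The median half-width of the 95% intervals was 0.37 on the log2 scale, and it ranged from 0.24 to 1.15 over the 37 genes. The SE of a gene pools the spread of all groups, so its half-width is the same in every comparison. The interval lay wholly within a log2 difference of 1 in either direction for 33 genes in MRV minus MR, 33 in MR minus NC and 34 in MRV minus NC. For the rest, PRKACB, RGS2 and RGS4 among them, the interval reached past a 2-fold difference in at least 1 direction. Leaving out 1 array turned the sign of the difference for 18 of the 37 genes in MRV minus MR, 22 in MR minus NC and 19 in MRV minus NC.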

How the data were processed

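Total RNA from left atria was hybridised to a porcine Affymetrix array, 1 array per pig. The table deposited by the authors gives linear intensities that they had already normalized between arrays. MAS5 and RMA are named in the submitters' processing notes; which of them was used for this table is not given there. Scale and normalization were read from the values, which ran from 4.8 to 27167.

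Of 24123 probe sets, 124 controls were left out. Symbols came from the platform annotation, and 5 probe sets with several symbols of these families were not used. For 45 of the 48 genes the Entrez ID was found in the RefSeq table of Sscrofa11.1 with the same symbol. It was not found for PRKACB, PRKCB and GNG2, whose symbols rest on the platform annotation alone. Probe sets whose mean of log2(intensity + 16) lay below the 40th percentile were not tested, which left 14399. Group means over all 6 arrays were fitted in R 4.3.3 with limma 3.58.1 (lmFit, eBayes), with 3 residual and 2.81 prior degrees of freedom. Adjustment was by Benjamini-Hochberg over all tested probe sets per comparison. An exact permutation test of 2 arrays against 2 could not pass the threshold and was not used. The fit was run on simulated data, 10 draws with 200 probe sets changed in MR by 1 or 2 log2 units. It recovered 80.5% of the changes of 1 unit and 97.7% of those of 2, with 192 calls on average, 13.8 of them false. The simulated spread was the same in every group, whereas the NC arrays lay further apart than the others. The simulation therefore does not give the error rate of these data.

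The members and lists were chosen with earlier results of these data known. By rule, full statistics were given to genes whose groups stood apart by 0.5 log2 units or more without overlap, and the brightest gene of each role and the one with the largest moderated statistic in MRV minus MR or MR minus NC were described; other genes given with p-values (GRK3, RGS2, PDE3A, PPP1R1A) were chosen after their values had been seen. Alternatives covered the pseudocount, filter, normalization, probe sets per gene, prior variance, samples, replicate block, actin ratio and leaving out each array. In each comparison, leaving out an array of the third group gave the same values as using only the compared groups, so these alternatives are not distinct. All columns of the table were used.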

Additional observations from a re-analysis of the deposited data

How the results depend on the processing

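No gene of these families passed the adjusted threshold in any comparison under any of the 16 alternatives, with a smallest limma adjusted p of 0.104. Counts of genes whose groups stood apart by 0.5 log2 units or more without overlap ranged, on leaving out 1 array, from 1 to 3 in MRV minus MR (2 with all arrays), from 0 to 4 in MR minus NC (0) and from 0 to 3 in MRV minus NC (0), where 1 array fewer makes overlap rarer. They were 1 in MRV minus MR with a pseudocount of 64 or quantile normalization (PRKACB), and 1 in MRV minus NC with a pseudocount of 1 or the actin ratio as a covariate (RGS1). RGS1 fell below the filter with quantile normalization. Over all 14399 probe sets, the 1 call in MR minus NC became 0 with a pseudocount of 1, no filter, quantile normalization, eBayes trend, only the compared groups, the replicate block or the actin ratio, and 0 without any 1 of the 6 arrays. With the replicate block 2 probe sets were called in MRV minus MR. Same-numbered arrays deviated together with r = 0.34 (MR and NC), 0.018 (MRV and MR) and 0.21 (MRV and NC). The labels give these arrays a shared number only, and whether they share anything else was not tested. With the block the adjusted p of PRKACB in MRV minus MR was 0.418, and its log2 difference ranged from 0.84 to 1.32 over all alternatives. With the actin ratio, signs turned for 14 of the 37 genes in MRV minus MR, 4 in MR minus NC and 10 in MRV minus NC. Among the genes with the largest moderated statistic of their role, these were GNB2 (-0.14) and PRKAB1 (0.0021) in MRV minus MR. Leaving out 1 array turned the sign or moved the value by over 1.5 times for 30 of 37 genes in MRV minus MR, 34 in MR minus NC and 34 in MRV minus NC. Among the same genes of each role, signs turned in MR minus NC for ARRB2 (-0.21 to 0.36), GNB1L (-0.23 to 0.036) and PRKCZ (-0.15 to 0.092). The cause was not tested. Dim probe sets, 11 of the 48 genes, gave no test.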
